A study of Homo sapiens with 12 samples.

Results

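Gasdermins are the proteins that open pores in the plasma membrane during pyroptosis, a lytic form of cell death, and caspases are the proteases that free their pore-forming part. The genes described here are 3 gasdermins (GSDMB, GSDMD and GSDME), 4 caspases (CASP1, CASP4, CASP8 and CASP9) and NINJ1, which breaks the membrane after the pore has formed. They were picked by name, for their place in gasdermin-driven death, and all 8 of them were found among the 20263 genes of the deposited table, GSDME under its older symbol DFNA5. Of the 8, 7 passed the filter on low counts and were tested among 14287 genes. The cells were A375, an established human melanoma line of WT genotype, whose labelled tissue is a skin tumor. The 4 groups were Ctrl, DdBIC, Hemin and DdBIC+Hemin, with 3 samples each. DdBIC is dodecyl 1H-benzo[d]imidazole-5-carboxylate, which the labels write as DBIC and which the study used to induce pyroptosis. Hemin, an oxidised form of heme, was given alone or together with DdBIC. The comparisons ask what DdBIC changes and what hemin does to those changes. Dose and time of these RNA samples are not given in the sources used here. The labels do not say whether the 3 samples of a group were separate cultures, and the study's methods speak of independent experiments in general without naming the RNA samples, so p-values measure only the spread between these samples, which may be technical.

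Pyroptosis is controlled mainly after transcription. A gasdermin is made as a silent precursor, and it forms pores only after a protease has cut the linker between its amino-terminal and carboxy-terminal parts. GSDMD is cut by CASP1 in inflammasomes, by CASP4 after bacterial lipopolysaccharide enters the cytosol, and in some settings by CASP8. GSDME links apoptotic signalling, in which CASP9 is activated on the apoptosome, to pore formation, and GSDMB is cut by granzyme A from cytotoxic lymphocytes. RNA levels therefore report how much precursor message was present, and not whether any of these proteins was cut.

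The libraries held 37951275 to 44358912 counts, and replicate libraries of a group correlated at 0.985 to 0.988 across genes. HMOX1, the heme-degrading enzyme that heme induces, was used to check the labels. It stood at 8.71 ± 0.632 CPM (counts scaled to the library total; SD, n = 3) in Ctrl, 7.82 ± 0.795 in DdBIC, 63.2 ± 1.999 in Hemin and 168.5 ± 21.4 in DdBIC+Hemin, so that all 6 libraries labelled with hemin lay above the 6 without it. Of 7 melanocyte markers, SOX10 was high at 547.8 to 769.5 CPM, whereas the pigment-cell genes TYR, MLANA, DCT and PMEL reached at most 0.0512, 0.435, 0.423 and 1.11 CPM. The summed melanocyte markers ranged from 642.6 to 670.2 CPM in Ctrl and from 736.0 to 796.8 CPM in DdBIC, most of it SOX10 (mean 633.5 and 740.7 CPM). With DdBIC, 2 of this list were called higher by edgeR, SOX10 by a log2 fold change of 0.23 (adjusted p = 0.00254) and the low PMEL by 0.90 (adjusted p = 0.0276), and S100B was called lower (-0.36, adjusted p = 0.0210). The 5 neural crest and dedifferentiated melanoma markers summed to 766.1 to 801.2 CPM in Ctrl and 713.1 to 740.3 CPM in DdBIC, where AXL (-0.16) and NGFR (-0.23) were called lower and SOX9 (1.08), EGFR (0.27) and NT5E (0.12) higher. The part of these markers in the results below was not tested. The 5 immune markers summed to 1.55 to 2.75 CPM over all libraries, and 1 of them, PTPRC, was at 0 counts in every library. The 3 epithelial markers summed to at most 0.295 CPM. The 3 endothelial markers summed to at most 1.33 CPM in Ctrl and 2.03 CPM in DdBIC, and 1 of them, CDH5, was called higher with DdBIC, at 0 to 10 counts in Ctrl and 22 to 27 in DdBIC (log2 fold change 2.14, edgeR adjusted p = 0.0211). The part of these markers was not tested either.

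Levels can be compared between genes only per length, for which the TPM values of the deposited table, scaled by gene length and then to one sum per library, were used. GSDMD was the highest of the 8 genes, with a median of 74.1 TPM over the 12 libraries and a range of 69.9 to 93.1. CASP4 followed at a median of 32.1 TPM (29.03 to 41.69), then NINJ1 at 26.5 (23.6 to 28.8), CASP8 at 20.2 (17.5 to 23.6), CASP9 at 13.7 (10.7 to 16.7) and GSDME at 10.5 (9.26 to 13.8). GSDMB was the lowest of the 7 at 4.42 TPM (3.30 to 7.93). NINJ1 and CASP8 met at 23.6 TPM, and CASP9 and GSDME overlapped, whereas the ranges of the other neighbours in this order did not. CASP1 was close to absent. The ratio of count to TPM, which should be fixed for a gene up to a factor shared by its library, varied 1.497-fold between libraries for CASP4, 1.36-fold for CASP9 and 1.25-fold for CASP8, against a median of 1.09-fold over 10121 well-counted genes. The order of levels for these 3 caspases therefore holds only for the length that was used in each library, and the tests below rest on counts.

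**Figure D1:**
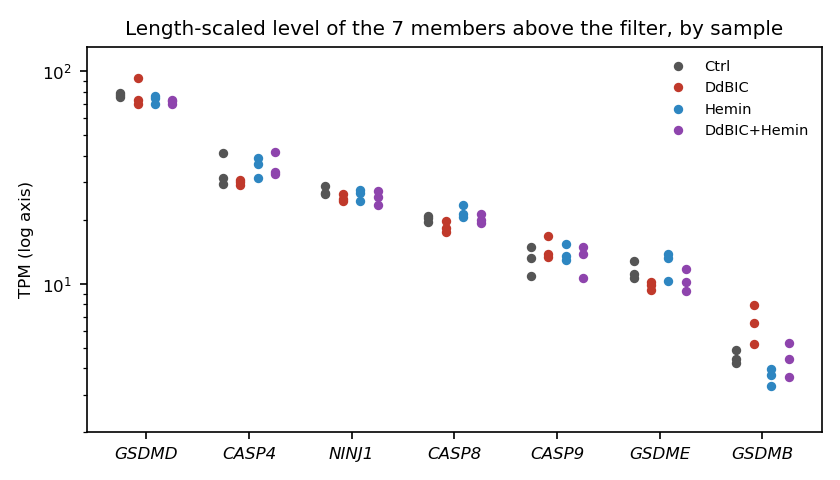
TPM on a log axis for each of the 12 libraries, by gene and coloured by group, with 1 point per library; CASP1 is left out since its median was 0. GSDMD lies highest at 69.9 to 93.1 TPM and GSDMB lowest at 3.30 to 7.93 TPM, and of the DdBIC points only those of GSDMB all lie above the Ctrl points of their gene. How common this is among all genes was not computed.

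GSDMD, the gasdermin that inflammasomes use, did not differ with DdBIC by more than the spread. It was counted at 61.2, 59.9 and 64.2 CPM in Ctrl and at 56.6, 56.9 and 73.5 CPM in DdBIC. The third DdBIC library lay above every Ctrl library and the other 2 below every one, so the groups overlapped in a way that 1 library decided. The log2 fold change of DdBIC against Ctrl was 0.01 (SE 0.08, 95% interval -0.17 to 0.20, adjusted p = 0.922). Without DdBIC 3 it was -0.13, with an adjusted p of 0.0470, and with upper-quartile scaling or with library size alone it was also below 0, at -0.05 and -0.01. In Hemin the values were 59.3, 56.4 and 59.7 CPM, and in DdBIC+Hemin 59.4, 58.3 and 57.4 CPM. Both hemin groups lay wholly below Ctrl, by log2 fold changes of -0.08 (adjusted p = 0.719) and -0.08 (adjusted p = 0.615), which did not pass the test.

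GSDME, the gasdermin of apoptotic signalling, overlapped between groups in every comparison. Its gene lies on chromosome 7 at 24698353 to 24758113, minus strand. Its Ctrl values were 11.9, 8.77 and 8.75 CPM and its DdBIC values 7.65, 9.13 and 8.46 CPM. Ctrl 1 was the high library of its group. The log2 fold change of DdBIC against Ctrl was -0.22 (SE 0.17, 95% interval -0.59 to 0.15, adjusted p = 0.346), and it ran from -0.30 without Ctrl 3 to -0.059 without Ctrl 1. The Hemin libraries stood at 7.92, 11.6 and 11.1 CPM and those of DdBIC+Hemin at 7.96, 8.75 and 10.6 CPM. Each hemin group thus held a library close to the lowest DdBIC one and a library above 10 CPM.

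GSDMB was the only member past the threshold in any comparison. The gene lies on chromosome 17 at 39904595 to 39918650 of GRCh38, minus strand, and was counted with 86 to 198 reads per library, the lowest of the 7. It stood at 2.56, 2.87 and 2.76 CPM in Ctrl and at 3.17, 4.87 and 3.78 CPM in DdBIC. All 3 DdBIC libraries were above all 3 Ctrl libraries, and they were also the more scattered (3.94 ± 0.863 against 2.73 ± 0.160 CPM, SD, n = 3). The share of all tested genes whose groups lie apart in this way was not computed, so the separation is not read as particular to GSDMB. In bulk RNA, more message per cell and more cells that carry it cannot be told apart. The difference was 1.44-fold, a log2 fold change of 0.53 (SE 0.17, 95% interval 0.16 to 0.89, adjusted p = 0.0267). The call was lost without Ctrl 1 (0.48, adjusted p = 0.0833), without Ctrl 3 (0.54, adjusted p = 0.0622), without DdBIC 2 (0.35, adjusted p = 0.1145) and when only these 2 groups were fitted (0.53, adjusted p = 0.0555). DESeq2 gave 0.53 with an adjusted p of 0.0243.

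With hemin, GSDMB was 2.33, 2.35 and 2.25 CPM in Hemin and 3.14, 2.49 and 3.47 CPM in DdBIC+Hemin. The 3 Hemin libraries were the lowest of the 12, below every Ctrl library, and the DdBIC+Hemin libraries lay above them but overlapped with both Ctrl and DdBIC. The log2 fold change was -0.38 for DdBIC+Hemin against DdBIC (unadjusted p = 0.0423, adjusted p = 0.106), -0.24 for Hemin against Ctrl (adjusted p = 0.545) and 0.39 for DdBIC+Hemin against Hemin (adjusted p = 0.218). Without DdBIC 1 the first of these was -0.51 with an adjusted p of 0.0391. The interaction, that is the DdBIC effect with hemin minus the DdBIC effect without it, was -0.14 (SE 0.24, 95% interval -0.66 to 0.38, adjusted p = 0.768). A DdBIC effect on GSDMB that differs with hemin was therefore not shown, and the interval is wide enough to hold a full loss of the 0.53.

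**Figure D2:**
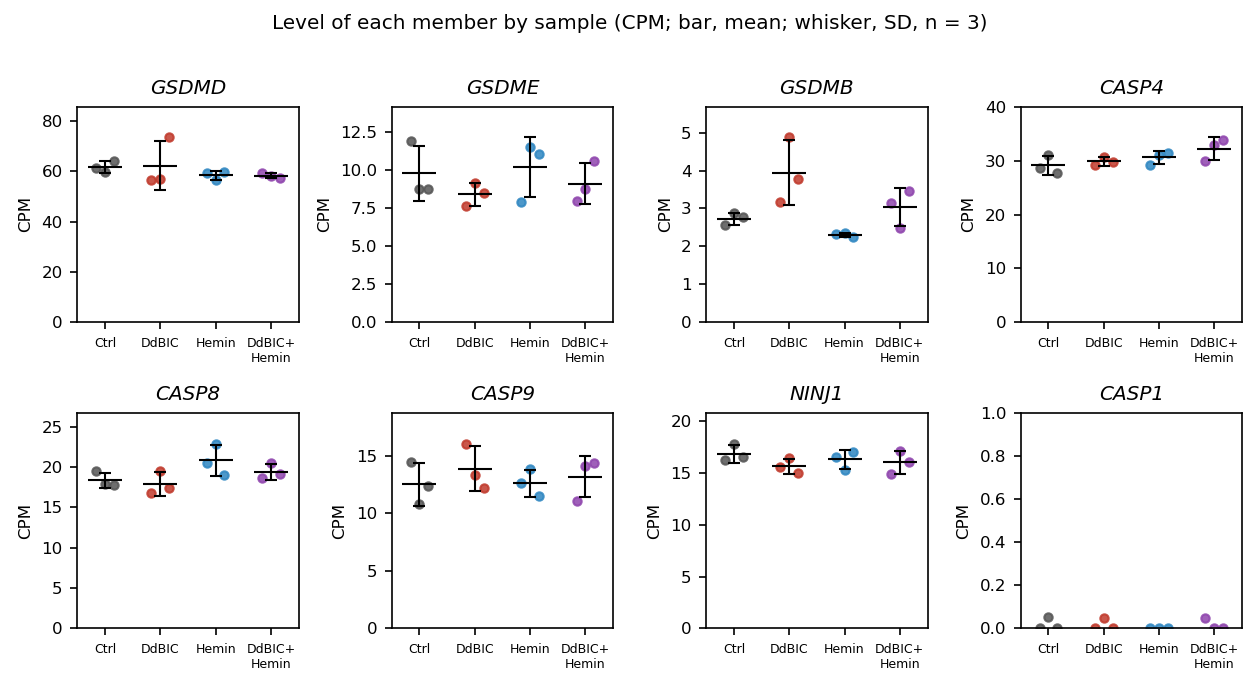
CPM of each of the 8 genes by group, 1 point per library with the mean as a bar and the SD as a whisker (n = 3; CASP1 is drawn without them), each axis starting at 0. GSDMB is the only one of these 8 genes whose 3 DdBIC points, 3.17 to 4.87 CPM, all lie above its 3 Ctrl points. How common such a separation is among all genes was not computed. The single high GSDMD point is DdBIC 3 at 73.5 CPM.

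CASP1, the inflammasome caspase, had 2 counts in each of 3 libraries, Ctrl 2, DdBIC 2 and DdBIC+Hemin 1, and 0 in the other 9. A count of 0 allows up to 3 counts, which come to 0.0684 to 0.0784 CPM over the 12 libraries, so in the 9 libraries at 0 CASP1 could have been present below that level. This limit covers counting error only, and it may be too low, since low counts in the table were mostly even. No fold change was computed and CASP1 did not enter the test. The gene lies at 105025443 to 105035250 of chromosome 11, minus strand, in a run of related genes with CASP5, which had 0 counts in all 12 libraries, and CASP4.

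CASP4, the sensor and protease of cytosolic lipopolysaccharide, was by contrast well counted, with 1082 to 1488 reads per library. Its gene lies at 104942866 to 104969436 of chromosome 11, minus strand. The values were 28.7, 31.2 and 27.7 CPM in Ctrl and 29.2, 30.8 and 29.8 CPM in DdBIC, with the DdBIC libraries inside the Ctrl range. The log2 fold change was 0.04 (SE 0.06, 95% interval -0.10 to 0.17, adjusted p = 0.687), and with upper-quartile scaling it was -0.03. Hemin libraries gave 29.3, 31.1 and 31.6 CPM and DdBIC+Hemin libraries 29.9, 33.0 and 33.9 CPM. The last group held the 2 highest libraries of the 12. Against Ctrl, DdBIC+Hemin differed by 0.15 (unadjusted p = 0.0366, adjusted p = 0.160), which did not pass.

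CASP8, the initiator caspase of death receptors, stood at 19.5, 17.9 and 17.8 CPM in Ctrl and 16.7, 19.5 and 17.5 CPM in DdBIC, and the groups overlapped. DdBIC against Ctrl was -0.04 (SE 0.08, 95% interval -0.22 to 0.14, adjusted p = 0.758). Hemin libraries were at 20.6, 22.9 and 19.0 CPM and DdBIC+Hemin libraries at 18.6, 20.5 and 19.1 CPM. Hemin against Ctrl was the largest difference of the gene, 0.18 (unadjusted p = 0.0515, adjusted p = 0.305), and Hemin 3 lay below Ctrl 1. The gene lies at 201233443 to 201287711 of chromosome 2, plus strand.

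CASP9, the initiator caspase of the apoptosome, varied more from library to library than CASP4 and CASP8, 1.49-fold between the highest and the lowest. Its gene lies at 15490832 to 15526534 of chromosome 1, minus strand. It was 14.5, 10.8 and 12.4 CPM in Ctrl and 16.1, 13.3 and 12.3 CPM in DdBIC, with a log2 fold change of 0.15 (SE 0.14, 95% interval -0.17 to 0.46, adjusted p = 0.460) that ran from 0.027 without DdBIC 1 to 0.26 without Ctrl 1. Hemin libraries gave 12.6, 13.8 and 11.5 CPM and DdBIC+Hemin libraries 11.1, 14.1 and 14.4 CPM. The ranges of the groups overlapped in every comparison, although the DdBIC+Hemin libraries lay on both sides of the Hemin range and not inside it. In GENCODE 29 the gene shares 106 exon bases with CELA2B on the other strand, whose counts of 0 to 4 per library are small beside the 428 to 631 of CASP9.

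NINJ1, whose protein gathers in the membrane of dying cells and tears it, was the steadiest of the 7 across libraries, with 1.20-fold between the highest and the lowest. Ctrl libraries gave 16.2, 17.8 and 16.5 CPM and DdBIC libraries 15.6, 16.4 and 15.0 CPM, so only DdBIC 2 reached into the Ctrl range. The log2 fold change was -0.11 (SE 0.07, 95% interval -0.26 to 0.05, adjusted p = 0.274). Hemin libraries were at 16.6, 15.3 and 17.1 CPM and DdBIC+Hemin libraries at 14.9, 17.1 and 16.1 CPM. The gene lies at 93121489 to 93134288 of chromosome 9, minus strand.

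With DdBIC against Ctrl, 1 of the 7 passed the threshold (GSDMB, higher), where 37.2% of all 14287 genes did, 20.0% higher and 17.2% lower. The difference between these shares was not tested, and the count of members was 0 without Ctrl 1, Ctrl 3 or DdBIC 2 and 2 without DdBIC 3. With upper-quartile scaling the share of higher calls among these was 39.95% in place of 53.8%, while GSDMB was still called higher. The median absolute log2 fold change of the members was 0.11, and that of all genes was 0.21. The 95% intervals of the 6 members other than GSDMB lay within -0.59 and 0.46, so changes beyond those bounds lay outside every one of these intervals, and the narrow ones, CASP4 and NINJ1, were bounded at 0.17 and 0.05 on the upper side. When hemin was added to DdBIC, 0 of the 7 passed (1 at an unadjusted p under 0.05, GSDMB; 0 by DESeq2), where 31.9% of all genes did, 13.5% higher and 18.4% lower. Upper-quartile scaling turned this balance, from a share of higher calls of 42.4% to 59.2%. This comparison shares the DdBIC libraries with the first one. In Hemin against Ctrl 0 of the 7 passed (0 at an unadjusted p under 0.05; 0 by DESeq2) with 4.06% of all genes. In DdBIC+Hemin against Hemin 0 passed (1 unadjusted, GSDMB; 0 by DESeq2) with 6.80% of all genes. In DdBIC+Hemin against Ctrl 0 passed (1 unadjusted, CASP4; 0 by DESeq2) with 12.4%, and in the interaction 0 passed (0 unadjusted; 0 by DESeq2) with 16.6%.

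**Figure D3:**
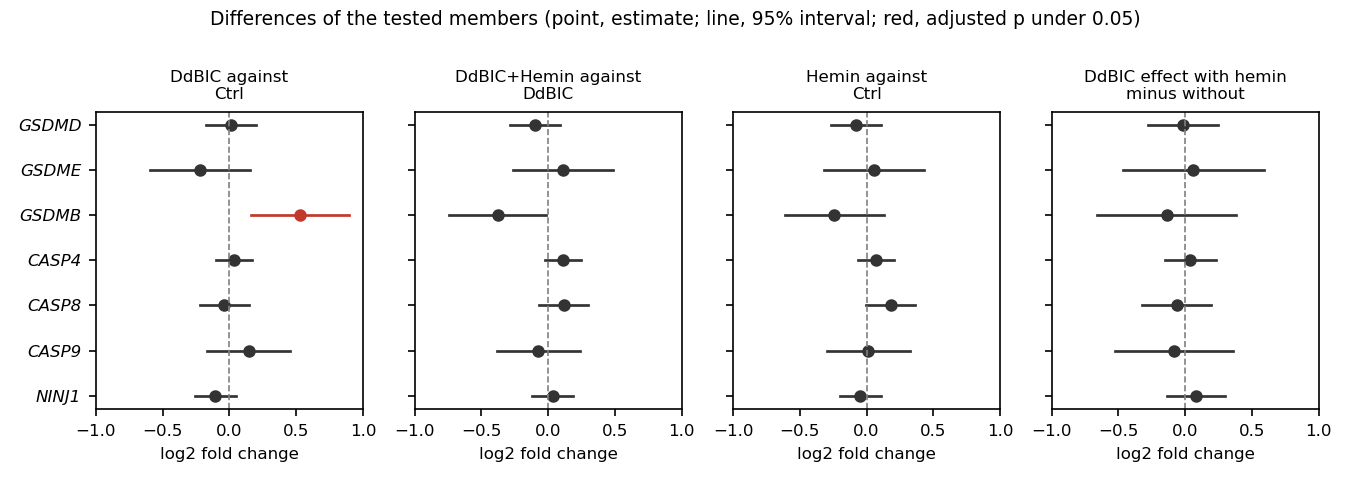
Log2 fold change (point) and 95% interval (line) of the 7 tested genes in DdBIC against Ctrl, DdBIC+Hemin against DdBIC and Hemin against Ctrl and in the interaction, with genes past an adjusted p of 0.05 in red. GSDMB in DdBIC against Ctrl, at 0.53, is the only red one, and every other interval drawn but that of GSDMB in DdBIC+Hemin against DdBIC holds 0.

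The members did not follow each other over the libraries. Between pairs of the 7, Pearson's r of log2 CPM over the 12 samples ran from -0.44 for GSDMD and CASP8 to 0.50 for GSDME and CASP8. Out of the genes that averaged 5 CPM or more, the ones most like GSDMB were HSPBAP1 (r = 0.954) and MICAL1 (r = 0.950). For GSDMD they were CEP97 (0.894) and TRIM5 (0.882), for CASP4 NEDD1 (0.912), for CASP8 SPATA6 (0.919), for GSDME SLC44A1 (0.876), for CASP9 TDG (0.844) and for NINJ1 GTF2E1 (0.810). These are descriptions over 12 libraries that share groups and depth, picked as the highest of 10677 genes (10678 for GSDMB), and carry no test.

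The proteins around the gasdermins, which bring caspases together or restrain them, come next, and the promoters of both kinds of gene are set side by side first. RefSeq windows of 300 bases, 250 before the start of transcription and 50 after it on GRCh38.p14, were at hand for 5 of the 8 members (GSDME, CASP4, CASP8, CASP9 and NINJ1). They were searched on both strands for 5 motifs. These were the NBRE (AAAGGTCA) that Nur77 binds, the AP-1 site (TGANTCA), the core of the interferon-stimulated response element (GAAANNGAA), the CARE of ATF4 targets (TGATGCAA) and the NF-kB site. Over all 35116 windows of this length, 1.22%, 7.71%, 8.11%, 0.866% and 11.3% held them. Shown are CASP4 and CASP8, which did not pass the test with DdBIC, beside TNFAIP3 and BIRC3, the most strongly raised genes of the caspase-8 platforms, all 5′ to 3′ in the direction of the gene, with motif matches in capitals. The CASP8 window, the first of 3, holds the response element core on its opposite strand, across the start site. TNFAIP3 and BIRC3 hold 2 NF-kB matches each, and CASP4 holds a match to none of the 5. A match is a description of the letters and shows no binding, and a missing match says only that these letters are not in this window.
CASP4, chr11:104968525-104968824, minus strand: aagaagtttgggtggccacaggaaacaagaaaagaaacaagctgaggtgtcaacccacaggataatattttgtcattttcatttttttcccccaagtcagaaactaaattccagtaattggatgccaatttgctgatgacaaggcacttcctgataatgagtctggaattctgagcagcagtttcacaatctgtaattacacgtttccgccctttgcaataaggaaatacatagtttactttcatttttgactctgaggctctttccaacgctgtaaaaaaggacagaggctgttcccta
CASP8, chr2:201233213-201233512, plus strand: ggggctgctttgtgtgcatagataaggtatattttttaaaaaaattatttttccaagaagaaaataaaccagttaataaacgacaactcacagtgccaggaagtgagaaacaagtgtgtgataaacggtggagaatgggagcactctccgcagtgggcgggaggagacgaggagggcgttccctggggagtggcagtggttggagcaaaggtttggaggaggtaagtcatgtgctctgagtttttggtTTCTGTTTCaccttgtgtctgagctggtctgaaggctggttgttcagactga
TNFAIP3, chr6:137867009-137867308, plus strand: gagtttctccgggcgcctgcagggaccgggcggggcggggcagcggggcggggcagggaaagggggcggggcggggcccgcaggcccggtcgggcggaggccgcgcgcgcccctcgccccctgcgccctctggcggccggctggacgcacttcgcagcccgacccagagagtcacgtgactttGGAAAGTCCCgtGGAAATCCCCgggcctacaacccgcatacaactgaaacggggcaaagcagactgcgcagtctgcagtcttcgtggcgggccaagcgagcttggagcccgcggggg
BIRC3, chr11:102317234-102317533, plus strand: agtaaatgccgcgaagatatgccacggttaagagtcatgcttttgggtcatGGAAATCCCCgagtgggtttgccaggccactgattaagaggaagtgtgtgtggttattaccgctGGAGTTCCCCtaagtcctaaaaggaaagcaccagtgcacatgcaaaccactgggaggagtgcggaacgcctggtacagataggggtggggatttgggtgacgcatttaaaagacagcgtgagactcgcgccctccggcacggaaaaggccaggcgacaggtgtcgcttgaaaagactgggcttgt

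The other 2 windows of CASP8 each held an AP-1 match, and the windows of GSDME, CASP9 and NINJ1 held a match to none of the 5 motifs. Of the 18 list genes named below, 14 had a window, and 5 of these held an NF-kB match (TNFAIP3, BIRC3, CYLD, IRF1 and ZDHHC9), as did 0 of the 5 members with a window. These counts are per gene, with up to 3 windows each, whereas the background of 11.3% is per window. The difference between members and list genes was not tested, and nothing is read from it.

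CASP8 is activated or held in check on platforms formed by other proteins. Of 17 genes of these platforms tested, 7 rose and 2 fell with DdBIC (52.9% called, against 37.2% of all genes; median log2 fold change 0.19), and when hemin was added 8 fell and 2 rose (58.8%, against 31.9%). Neither difference in shares was tested. TNFAIP3, also called A20, is a deubiquitinase that restrains TNF receptor and NF-kB signalling. It went from 3.90, 3.78 and 4.07 CPM in Ctrl to 223.1, 185.1 and 205.3 CPM in DdBIC, a 52.2-fold rise (log2 5.71, adjusted p = 2.15e-10), and was at 10.4, 7.68 and 9.46 CPM in DdBIC+Hemin. BIRC3, or cIAP2, a ubiquitin ligase that acts on RIPK1, went from 0.645, 1.08 and 1.151 CPM to 39.3, 31.8 and 38.2 CPM, a 37.9-fold rise (log2 5.24, adjusted p = 1.36e-08), and was at 2.89, 2.76 and 2.81 CPM in DdBIC+Hemin. For both genes the DdBIC libraries stood far above all others, and the DdBIC+Hemin libraries stayed above every Hemin library. The interaction was -4.60 for TNFAIP3 and -3.67 for BIRC3. CYLD, another deubiquitinase of these complexes, rose by 0.91 (adjusted p = 0.000293) and fell by 0.84 with hemin added. TNFRSF21, the death receptor DR6, went the other way. It fell by 0.79 (adjusted p = 3.26e-09), from 186.6, 190.5 and 185.2 CPM to 107.8, 107.2 and 109.1 CPM, and was at 175.4 to 186.2 CPM in DdBIC+Hemin. In Hemin it was at 216.7 to 219.6 CPM, so every DdBIC+Hemin library lay below every Hemin library. RIPK3, the kinase of necroptosis, had 0 counts in all libraries.

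**Figure D4:**
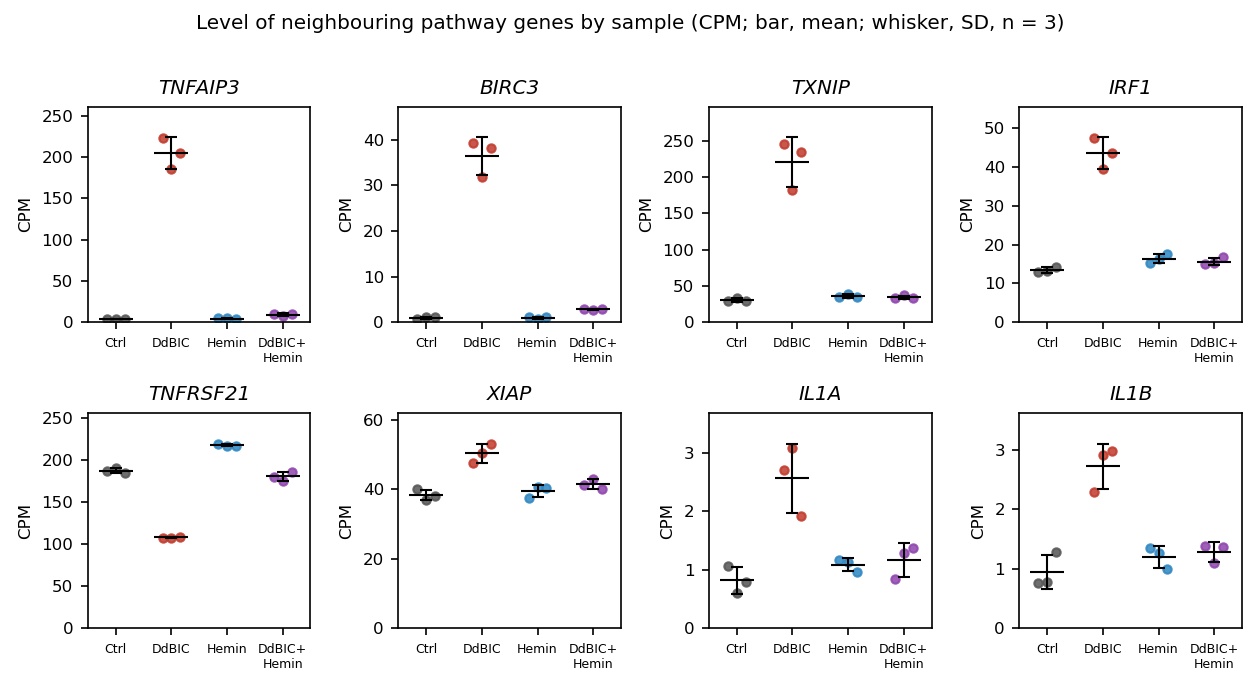
CPM by group for 8 genes of the neighbouring lists, 1 point per library with mean and SD (n = 3), each axis starting at 0. TNFAIP3, BIRC3, TXNIP, IRF1, IL1A, IL1B and XIAP are highest and TNFRSF21 lowest in the 3 DdBIC libraries. In DdBIC+Hemin, TNFAIP3 at 9.19 CPM and BIRC3 at 2.82 CPM were above their Ctrl means of 3.91 and 0.960 CPM.

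Inflammasome sensors and adaptors were mostly low. Of 19 genes listed, 11 were tested, of which 4 rose and 0 fell with DdBIC (36.4%, near the 37.2% of all genes; median 0.37), and with hemin added 4 fell and 1 rose (45.5%, against 31.9% of all genes). TXNIP, an inhibitor of thioredoxin that can bind NLRP3, led them. It was 28.8, 33.2 and 29.3 CPM in Ctrl, 245.6, 181.6 and 234.1 CPM in DdBIC and 32.9, 36.9 and 33.9 CPM in DdBIC+Hemin. The rise was 7.24-fold (log2 2.86, adjusted p = 2.43e-08), and with hemin added it fell by 2.67. NLRP3, the sensor itself, rose from 0.620, 0.529 and 0.358 CPM to 1.21, 0.886 and 1.04 CPM (log2 1.05, adjusted p = 0.00808). Its Hemin libraries, at 0.835 to 0.940 CPM, and its DdBIC+Hemin libraries, at 0.572 to 0.914 CPM, overlapped with DdBIC, and DdBIC+Hemin against DdBIC was -0.40 (adjusted p = 0.261). PYCARD, the adaptor that links sensors to CASP1, had 2 to 22 counts per library.

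Genes of the apoptosome and the other caspases gave 1 higher and 1 lower of 9 with DdBIC (22.2%, against 37.2% of all genes; median absolute log2 fold change 0.20), and 2 lower with hemin added (22.2%, against 31.9%). XIAP, an inhibitor of CASP9, was the one that rose, from 40.1, 37.1 and 37.9 CPM in Ctrl to 47.5, 50.4 and 53.1 CPM in DdBIC (log2 0.39, adjusted p = 0.000189). All 3 DdBIC libraries lay above the other 9. In DdBIC+Hemin it was at 41.1, 43.1 and 40.2 CPM, a fall of 0.28 from DdBIC (adjusted p = 0.00230). The one that fell with DdBIC was APAF1, and CYCS was the other gene that fell with hemin added, and both are described further on.

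Of the other gasdermins, granzymes and released substrates, 6 of 14 were tested, of which 2 rose with DdBIC (33.3%, near the 37.2% of all genes; median -0.11) and 2 fell when hemin was added (33.3%, near 31.9%). In both comparisons these were IL1A and IL1B, the interleukin-1 cytokines that leave the cell through gasdermin pores. IL1A went from 1.07, 0.605 and 0.793 CPM to 2.70, 3.08 and 1.92 CPM (log2 1.64, adjusted p = 0.000542). IL1B went from 0.769, 0.781 and 1.28 CPM to 2.29, 2.90 and 2.98 CPM (log2 1.53, adjusted p = 0.000275). Both were low genes, and in both the DdBIC libraries lay above all of the other 9. GSDMC, a further gasdermin, had 2, 0 and 0 counts in Ctrl, 0, 0 and 0 in DdBIC, 2, 6 and 2 in Hemin and 2, 2 and 4 in DdBIC+Hemin. Every library with hemin thus held at least 2 counts, and no library without hemin held more than 2. GSDMC did not pass the filter on low counts, so this split was not tested. GSDMA and IL33 had 0 counts in all libraries. GZMB had 4 counts in every Ctrl library, 3 to 7 in DdBIC, 4 to 8 in Hemin and 0 to 5 in DdBIC+Hemin, and did not pass the filter either. The paper names GSDMC as the gasdermin of this death and granzyme B as the protease that cuts it. It also reports more GZMB mRNA with DdBIC in its own measurements. Whether these RNA samples share that rise was not tested.

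Of 19 genes that control gasdermin pores or mend the membrane, 1 rose and 5 fell with DdBIC (31.6%, against 37.2% of all genes; median -0.11), and 4 rose and 2 fell with hemin added (31.6%, near the 31.9% of all genes). The one that rose was IRF1, a transcription factor of interferon responses, from 13.1, 13.1 and 14.3 CPM to 47.5, 39.4 and 43.7 CPM (log2 1.69, adjusted p = 4.84e-08), with 15.0, 15.3 and 16.7 CPM in DdBIC+Hemin. IRF2, which is needed for GSDMD transcription, did not pass with DdBIC (0.12, adjusted p = 0.207) and fell by 0.47 when hemin was added (adjusted p = 0.000425). It was also called lower in Hemin against Ctrl (-0.29, adjusted p = 0.0454), and the interaction was not called (-0.18, adjusted p = 0.265). GSDMD differed by -0.09 in DdBIC+Hemin against DdBIC (adjusted p = 0.445).

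**Figure D5:**
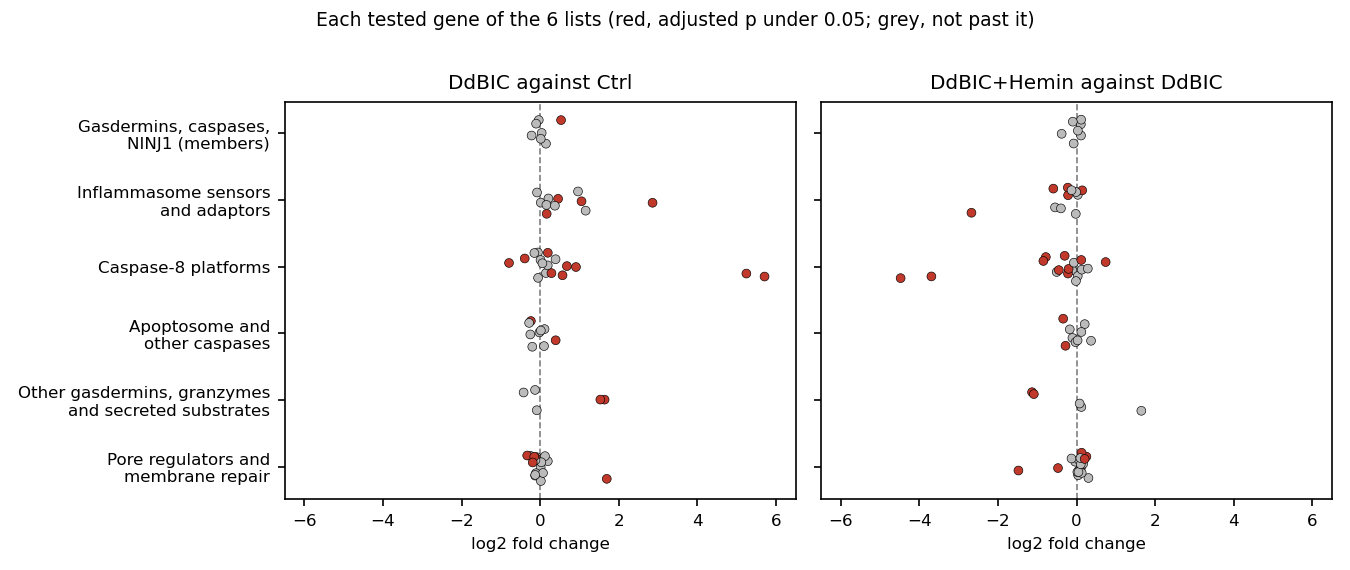
Log2 fold change of each tested gene in the 6 lists for DdBIC against Ctrl (left) and DdBIC+Hemin against DdBIC (right), red where the adjusted p was under 0.05, with vertical scatter only to separate points. The members lie between -0.22 and 0.53 on the left, where TNFAIP3 and BIRC3 of the caspase-8 platforms reach 5.71 and 5.24.

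Several list genes were called only by a small margin, and calls were lost without single libraries or under another setting. The DdBIC effect on NAIP, a sensor of bacterial flagellin with near-identical copies nearby that reads cannot always be assigned between, was 0.45 (adjusted p = 0.0392). It was lost without Ctrl 1, Ctrl 2, DdBIC 1, DdBIC 3, Hemin 3 or DdBIC+Hemin 1 (0.35 to 0.57 over all left-out libraries, adjusted p up to 0.137), and with upper-quartile scaling (adjusted p = 0.0638). DPP8, a protease that holds NLRP1 and CARD8 inactive, was at 0.16 (adjusted p = 0.0323), lost without any 1 of the Ctrl libraries or without DdBIC 3 (0.10 to 0.20, adjusted p up to 0.137), and with upper-quartile scaling, library size alone or only these groups fitted (adjusted p = 0.155, 0.0683 and 0.0709). APAF1, the scaffold of the apoptosome, was at -0.24 (adjusted p = 0.0150), lost without Ctrl 1 or DdBIC 2 (-0.27 to -0.19, adjusted p up to 0.0645). LYPLA1, which removes palmitate from proteins, was at -0.33 (adjusted p = 0.0354), lost without Ctrl 2, Ctrl 3, DdBIC 2 or DdBIC 3 (-0.43 to -0.26, adjusted p up to 0.115). ZDHHC9, which adds palmitate to GSDMD, was at -0.19 (adjusted p = 0.0229), lost without Ctrl 1, Ctrl 3 or DdBIC 3 (-0.23 to -0.14, adjusted p up to 0.0757), and with only these groups fitted (adjusted p = 0.0632). CHMP3, of the ESCRT machinery that pinches off damaged membrane, was at -0.17 (adjusted p = 0.0168), lost without Ctrl 2 or Ctrl 3 (-0.20 to -0.15, adjusted p up to 0.0579). CYCS, the cytochrome c that triggers the apoptosome, was at -0.34 for DdBIC+Hemin against DdBIC (adjusted p = 0.0493), and 10 of the 12 left-out libraries, all but Hemin 3 and DdBIC+Hemin 2, took the call away (-0.45 to -0.20, adjusted p up to 0.144). It was also lost with upper-quartile scaling, library size alone, no filter on low counts or only these groups fitted (adjusted p = 0.0873, 0.0513, 0.0676 and 0.140).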

How the data were processed

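RNA of 12 A375 samples was extracted with Trizol and sequenced by a company. The authors deposited one table of 20263 genes with, for each sample, read counts that the authors did not normalize, and TPM and FPKM values that the authors scaled by gene length and depth. The submitters' processing notes name Trim Galore, Subread, featureCounts and hg38, while versions, strand setting and the counting of read pairs are not given in the sources used here. Groups came from the sample labels. After filterByExpr, which kept 14287 genes, and TMM scaling, edgeR 4.0.16 (R 4.3.3) fitted the counts of all 12 libraries with a mean for each group, which left 8 residual degrees of freedom, and its quasi-likelihood F test was used. P-values were adjusted by Benjamini-Hochberg over all 14287 genes, with 0.05 as the threshold, and intervals are at the 95% level. Log2 CPM used a prior count of 2. DESeq2 1.42.0 was an alternative, as were other scalings and filters, a replicate block, fits of only the groups compared, a minimum log2 fold change of 1, and leaving out each library. TPM served to order levels between genes, and the deposited FPKM values were not used. The steps were tested on simulated data.

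The members and the 5 lists of neighbouring genes were chosen with earlier results of these data known, and some list genes are not reported here. Named list genes are, of those past the threshold, the 4 with the largest change per list in DdBIC against Ctrl and the 2 in DdBIC+Hemin against DdBIC. RIPK3, PYCARD, CASP5, GSDMA, GSDMC, GZMB and IL33, given only by their counts, fall outside this rule and were named after their values were seen. Genes alike were the 2 with the highest Pearson's r per member out of those that averaged 5 CPM or more. The depth of 37951275 to 44358912 counts puts 3 counts at 0.0684 to 0.0784 CPM. Low counts were more often even than odd (6289 values of 2 against 1309 of 1), so that for low genes a count may stand for less than 1 independent molecule, and intervals and floors cover counting error only. Symbols were those of the table, with GSDME listed as DFNA5, and overlaps with other genes were read from GENCODE 29.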

Additional observations from a re-analysis of the deposited data

Results flagged for a closer look

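In 10 of the genes named above, none of them a member, the DdBIC effect with hemin differed from that without hemin by the interaction test of edgeR. The difference of log2 fold changes was -4.60 for TNFAIP3 (adjusted p = 5.01e-08), -3.67 for BIRC3 (adjusted p = 1.11e-05), -2.92 for TXNIP (adjusted p = 9.97e-07), -1.76 for IRF1 (adjusted p = 2.20e-06), -1.54 for IL1A (adjusted p = 0.0156) and -1.43 for IL1B (adjusted p = 0.00965). It was -0.92 for CYLD (adjusted p = 0.00638), -0.32 for XIAP (adjusted p = 0.0138) and 0.52 for TNFRSF21 (adjusted p = 4.95e-06), whose DdBIC effect without hemin was a fall. For NLRP3 it was -1.20 (adjusted p = 0.0435), and 10 of the 12 left-out libraries, all but Ctrl 1 and DdBIC 2, took that call away (-1.38 to -1.01, adjusted p up to 0.101), as did DESeq2 (adjusted p = 0.0520) and no filter on low counts (adjusted p = 0.0534). These genes were named for their change in comparisons that enter this difference, so their number is a description.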

How the results depend on the processing

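Over 2075 values recomputed under an alternative, 1936 were marked the same. A fold change was marked so when it kept its direction and its side of the threshold. Counts of genes or members called were among the values too, and these have no direction. A count marked the same could still differ, such as 4519 genes without Ctrl 3 against 5310 in DdBIC against Ctrl. Signs turned 44 times, each for a member in a comparison where it was not called. 1 of these passed the threshold, GSDMD without DdBIC 3 in DdBIC against Ctrl, at -0.13. Without 1 library at a time, log2 fold changes ran as follows. For DdBIC against Ctrl they ran from -0.0026 to 0.086 for CASP4, -0.11 to 0.0075 for CASP8 and -0.13 to 0.077 for GSDMD. For DdBIC+Hemin against DdBIC they ran from -0.15 to 0.047 for CASP9, -0.16 to 0.045 for GSDMD, -0.010 to 0.20 for GSDME and -0.015 to 0.084 for NINJ1. For Hemin against Ctrl they ran from -0.087 to 0.13 for CASP9 and -0.047 to 0.22 for GSDME. For DdBIC+Hemin against Hemin they ran from -0.0045 to 0.17 for CASP9, -0.028 to 0.013 for GSDMD and -0.075 to 0.024 for NINJ1. For DdBIC+Hemin against Ctrl they ran from -0.025 to 0.19 for CASP9 and -0.23 to 0.056 for GSDME. In the interaction they ran from -0.011 to 0.091 for CASP4, -0.12 to 0.012 for CASP8, -0.20 to 0.036 for CASP9, -0.27 to 0.047 for GSDMB, -0.079 to 0.12 for GSDMD and -0.10 to 0.16 for GSDME. Other settings turned GSDMD to -0.048 (upper-quartile scaling) and -0.0076 (library size alone) in DdBIC against Ctrl, to 0.0041 (DESeq2) in DdBIC+Hemin against Hemin and to 0.037 (upper-quartile) in the interaction, and CASP4 to -0.025 (upper-quartile) in DdBIC against Ctrl. The cause was not tested. GSDMB in DdBIC against Ctrl gave 0.53 when only the groups compared were fitted and 0.35 to 0.66 without 1 library, and in DdBIC+Hemin against DdBIC -0.51 to -0.20. The members called in DdBIC against Ctrl were 0 when only the groups compared were fitted, 0 with a minimum log2 fold change of 1 and 0 to 2 without 1 library, and in DdBIC+Hemin against DdBIC 0 to 1. With the minimum of 1, the genes called fell, by construction, to 502 in DdBIC against Ctrl, 323 in DdBIC+Hemin against DdBIC, 16 in Hemin against Ctrl, 46 in DdBIC+Hemin against Hemin, 82 in DdBIC+Hemin against Ctrl and 278 in the interaction. Without 1 library there were 272 to 623 in Hemin against Ctrl and 612 to 934 in DdBIC+Hemin against Hemin, where fitting only these groups gave 569.

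The labels do not say what a replicate number stands for, so a replicate block pairs by number alone. Of 18 same-numbered pairs, 0 correlated over 0.1 in their deviations from the group means (-0.046 to 0.081). By the mean correlation with the samples of each number in the other groups, 8 of 12 samples were most like their own number. With the replicate block GSDMB in DdBIC against Ctrl was 0.52 (adjusted p = 0.0444), and 4 of 110 values lost a call, those of NAIP, DPP8 and LYPLA1 in DdBIC against Ctrl and of NLRP3 in the interaction. Depth limits CASP1 and GSDMC, which were at 0 to 6 counts.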

Other observations

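CASP4 held a ratio of count to TPM that differed between libraries by 1.497-fold, lowest in Ctrl 3 and highest in DdBIC 1, while its CPM differed by 1.23-fold over the 12 libraries. CASP9 was at 1.36-fold, lowest in Hemin 3, and NINJ1 at 1.01-fold. TPM of CASP4 was 41.3 in Ctrl 3 and 41.7 in DdBIC+Hemin 1, against 29.03 to 30.62 in the 3 DdBIC libraries, a gap that the counts of CASP4 do not show. What length was used in which library is not given in the sources used here.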
